A study of Rattus norvegicus with 20 samples.

Results

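The genes described here belong to the excitation-contraction and calcium handling machinery of skeletal muscle. They were chosen by gene symbol as 10 members, namely Ryr1, Cacna1s, Cacng1, Casq1, Casq2, Atp2a1, Sln, Jph1, Jph2 and Trdn. Of these, 9 were matched by symbol among the 32495 rows of the count table that carry a gene name, and all 9 passed the filter on low counts that left 11716 genes for testing. Atp2a1 was not analysed here. The samples were gastrocnemius muscle of female Fischer 344 rats, and every rat carried the Ward colorectal carcinoma, so there was no tumour-free group. TUMOUR STD rats ate the standard diet and received no chemotherapy (n = 5). CHEMO STD rats ate the same diet and received 2 cycles of irinotecan (CPT-11), a topoisomerase inhibitor, with 5-fluorouracil (5-FU, 50 mg/kg), an antimetabolite (7 libraries). CHEMO FO rats received the same chemotherapy and were moved to a diet with fish oil, a source of EPA and DHA, when it started (n = 8). The tumour had grown for 2 weeks before the first cycle and muscle was taken 7 days after the last, and the sources used here give the rats' age without its unit.

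In a muscle fibre the action potential runs inward along the transverse tubules, where the dihydropyridine receptor, whose pore-forming subunit is the product of Cacna1s, senses the voltage. It is coupled mechanically to the ryanodine receptor Ryr1 in the facing membrane of the sarcoplasmic reticulum, which opens and releases the calcium that calsequestrin had stored. Junctophilins hold the facing membranes together, triadin links calsequestrin to the release channel, and the SERCA pumps, restrained by small peptides such as sarcolipin, return calcium to the store so that the fibre relaxes.

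The named rows held between 3020821 and 10857477 counts per library, and levels are given as CPM, the usual unit of a gene's counts relative to the library total, here after TMM scaling of the totals. CHEMO STD 1 and 2 differed by far less than other pairs of one group, with a chi-square per gene of 2.23 against 13.7 to 255 in the other 58 pairs, and were summed and counted as 1 sample, CHEMO STD 1+2, so that n = 6. The muscle identity of the tissue was plain: the 10 measured fast-fibre markers summed to between 107342 and 199916 CPM, and the slow-fibre markers to between 4914 and 14813 CPM. The leukocyte markers summed to between 124 and 267 CPM in 18 samples and to 535 CPM in CHEMO FO 18, the sample with the lowest fast-fibre sum. The fibroblast and matrix markers ranged from 1858 to 14037 CPM. TUMOUR STD 10, TUMOUR STD 12, CHEMO STD 1+2 and CHEMO FO 16 stood at the upper end of this range within their groups. Skin keratin and related genes summed to 530 CPM in TUMOUR STD 10 and to 112 CPM in CHEMO FO 16, against at most 8.05 CPM in every CHEMO STD sample. The group medians were low throughout, at 6.85 CPM in TUMOUR STD, 5.37 CPM in CHEMO STD and 4.04 CPM in CHEMO FO. The labels name no sequencing batch. The count columns of CHEMO STD 1 and 2 carry MB in their names where all others carry VM, and the meaning of these names is not given.

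None of the 9 measured genes passed the test in any of the 3 comparisons. Following the thresholds in the study's methods, calls in edgeR's quasi-likelihood test needed p under 0.05 before adjustment and a 1.5-fold difference in either direction. For the chemotherapy effect (CHEMO STD versus TUMOUR STD) 0 of 9 were called where 2.38% of all genes tested were (0.93% higher and 1.45% lower). For the diet effect (CHEMO FO versus CHEMO STD) 0 of 9 were called where 1.66% of all genes were (0.615% higher and 1.05% lower), and for CHEMO FO versus TUMOUR STD 0 of 9 where 3.6% were (1.09% higher and 2.51% lower). At an unadjusted p under 0.05 with no limit on the fold the count was also 0 of 9 in each comparison, against 6.5%, 4.51% and 9.04% of all genes in the order just given, and DESeq2 called 0 of 9 in each. The edgeR test left 0 genes of any kind past an adjusted p of 0.05, with 762, 528 and 1059 genes under an unadjusted p of 0.05 in the same order. With so few members, 0 calls is close to what those percentages alone would give. The 3 comparisons share samples in pairs and their values are therefore set side by side rather than counted as repeats of one another.

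The median log2 fold change over the 9 genes was -0.00 for the chemotherapy effect, -0.04 for the diet effect and 0.01 for CHEMO FO versus TUMOUR STD. Over all genes tested the medians were -0.00, -0.01 and 0.00. The 95% intervals of the fold changes show how much could have been seen. For the chemotherapy effect the whole interval lay inside a 1.5-fold change for Cacng1, Casq1 and Jph1, and reached past it for the other 6 genes. For the diet effect it lay inside for Cacng1, Casq1, Casq2, Sln and Jph1, and for CHEMO FO versus TUMOUR STD for Ryr1, Cacna1s, Cacng1, Casq1 and Jph1. The groups overlapped for all 9 genes in all 3 comparisons, while 0.495%, 0.0683% and 0.324% of all genes tested had groups that did not. Because muscle was sequenced in bulk, fewer fibres of a type and less RNA per fibre cannot be told apart in any of these values.

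**Figure D1:**
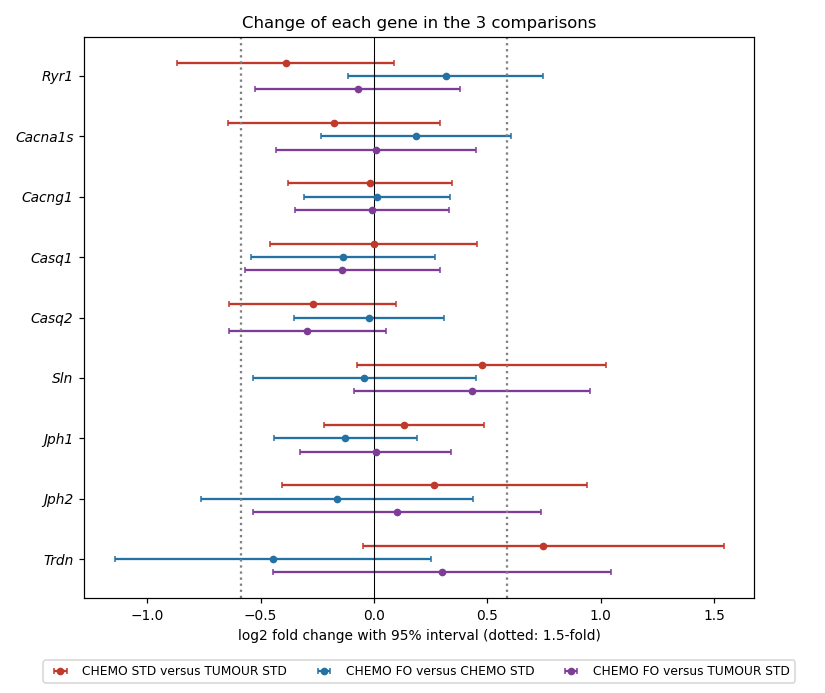
Log2 fold change (horizontal axis) of the 9 genes (vertical axis) in the 3 comparisons, with points for the edgeR estimate and bars for its 95% interval. Dotted lines mark a 1.5-fold change, and every bar crosses 0, with Trdn (0.75 for CHEMO STD versus TUMOUR STD) the farthest from it.

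RefSeq upstream sequence was matched by symbol for 7 of the 10 genes, not for Cacng1, Sln or Jph1, and 4 are shown. They are the 250 bases before the transcription start of the voltage sensor and release channel genes Cacna1s and Ryr1, whose levels moved together across samples, and of the calsequestrin genes Casq1 and Casq2, which followed different fibre-type markers. Sequences are RefSeq's on the GRCr8 build, read 5′ to 3′ on the strand of the gene, and the counts themselves were made on Rnor 6. Capitals mark the E-box, CANNTG, the motif that myogenic regulatory factors bind among other proteins, and in Casq2 also the MEF2 motif.
Ryr1, chr1:93551306-93551555, minus strand: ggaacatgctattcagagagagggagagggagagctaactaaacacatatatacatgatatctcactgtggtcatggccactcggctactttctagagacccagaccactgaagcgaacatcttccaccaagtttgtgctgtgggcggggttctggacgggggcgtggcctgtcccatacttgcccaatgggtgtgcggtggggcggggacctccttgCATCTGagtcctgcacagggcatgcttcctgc
Cacna1s, chr13:50045418-50045667, plus strand: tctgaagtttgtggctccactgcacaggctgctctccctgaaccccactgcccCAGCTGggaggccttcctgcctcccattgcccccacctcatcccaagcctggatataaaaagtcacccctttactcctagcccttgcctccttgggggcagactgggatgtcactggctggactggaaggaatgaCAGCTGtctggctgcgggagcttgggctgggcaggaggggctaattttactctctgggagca
Casq1, chr13:87212711-87212960, minus strand: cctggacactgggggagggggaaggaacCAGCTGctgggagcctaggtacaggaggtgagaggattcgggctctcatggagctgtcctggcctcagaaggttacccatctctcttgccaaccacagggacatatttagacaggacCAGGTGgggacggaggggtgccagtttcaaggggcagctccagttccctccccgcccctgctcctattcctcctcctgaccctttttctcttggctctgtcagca
Casq2, chr2:192214306-192214555, plus strand: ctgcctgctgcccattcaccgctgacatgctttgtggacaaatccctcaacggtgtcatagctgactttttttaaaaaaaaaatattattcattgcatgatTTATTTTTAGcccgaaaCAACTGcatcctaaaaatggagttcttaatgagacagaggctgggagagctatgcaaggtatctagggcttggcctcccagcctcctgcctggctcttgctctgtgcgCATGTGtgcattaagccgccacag

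Both strands were searched. The window of Ryr1 holds 1 E-box and those of Cacna1s, Casq1 and Casq2 hold 2 each, as 65.5% of the 33469 rat promoters of the same length hold at least 1. The MEF2 motif was matched in Casq2 only among the 7 member genes with an entry (Ryr1, Cacna1s, Casq1, Casq2, Atp2a1, Jph2 and Trdn), at position -149 counted from the start, and in 3.0% of all promoters. The windows of Jph2 and Trdn hold 0 E-boxes. A TATA box, TATAAA, was matched in Cacna1s alone of the 7, at position -144, and in 12.9% of all promoters, and the CArG box, which 1.5% of promoters hold, in none of them. The guanine and cytosine share of the windows ran from 44.0% in Trdn to 62.4% in Atp2a1. These are matches of letters in one window and say nothing of binding.

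Levels are CPM and are not divided by transcript length, so levels are compared between samples for one gene and never between genes.

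Cacna1s, the voltage sensor, was measured at 1024, 1389, 2237, 1191 and 2039 CPM in TUMOUR STD 8 to 12. It ranged from 1040 to 1766 CPM (median 1340) in CHEMO STD and from 781 to 2087 CPM (median 1606) in CHEMO FO. TUMOUR STD 10 and 12 were high, CHEMO FO 18 was the lowest of all, and the groups overlapped over most of their range. Its log2 fold change was -0.18 (SE 0.226) for the chemotherapy effect, 0.19 (SE 0.202) for the diet effect and 0.01 (SE 0.213) for CHEMO FO versus TUMOUR STD, with edgeR adjusted p of 0.849, 0.974 and 0.991. Cacng1, the gamma subunit of the same channel complex, was measured at 252, 279, 371, 324 and 363 CPM in TUMOUR STD 8 to 12, at 284 to 352 CPM (median 303) in CHEMO STD and at 152 to 393 CPM (median 324) in CHEMO FO. Apart from CHEMO FO 18, at 152 CPM, every sample of the 3 groups lay between 252 and 393 CPM. Its log2 fold change was -0.02 (95% interval -0.38 to 0.34) for the chemotherapy effect and 0.01 (-0.31 to 0.33) for the diet effect.

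Ryr1, the calcium release channel, was measured at 2767, 5837, 6040, 3694 and 4558 CPM in TUMOUR STD 8 to 12. In CHEMO STD it ranged from 2789 to 4872 CPM (median 3001) and in CHEMO FO from 2628 to 6044 CPM (median 4321). Of the 6 CHEMO STD samples 4 lay between 2789 and 3067 CPM, and CHEMO STD 1+2 and CHEMO STD 6 lay at 4403 and 4872 CPM, among the values of the other groups. For Ryr1 the log2 fold change was -0.39 (SE 0.231, edgeR adjusted p = 0.719) for the chemotherapy effect, 0.32 (SE 0.208, edgeR adjusted p = 0.974) for the diet effect and -0.07 (SE 0.217) for CHEMO FO versus TUMOUR STD. Neither of the first pair of differences passed, with exact permutation p of 0.177 and 0.175 (two-sided). With 1 sample left out in turn the unadjusted exact permutation p for the chemotherapy effect ran from 0.0476, without TUMOUR STD 8, to 0.362, without TUMOUR STD 10.

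Trdn, which encodes triadin, had the widest range of the 9 genes, 7.42-fold from the lowest sample to the highest. It was measured at 1511, 1037, 333, 1239 and 272 CPM in TUMOUR STD 8 to 12. In CHEMO STD the values were 559 CPM in CHEMO STD 1+2 and 1773, 2017, 1969, 1437 and 1088 CPM in CHEMO STD 3 to 7. In CHEMO FO Trdn ranged from 471 to 1747 CPM (median 1074). Each group therefore had 1 sample, or in TUMOUR STD a pair of samples, far below the others: TUMOUR STD 10 and 12, CHEMO STD 1+2 and CHEMO FO 16. These are the same 4 samples whose fibroblast and matrix markers were the highest of their groups. For Trdn the log2 fold change was 0.75 (SE 0.384, 95% interval -0.05 to 1.54, edgeR adjusted p = 0.719) for the chemotherapy effect, the largest in size among the 9 genes. It was -0.45 (SE 0.337, adjusted p = 0.974) for the diet effect and 0.30 (SE 0.360, adjusted p = 0.818) for CHEMO FO versus TUMOUR STD. The two-sided exact permutation p were 0.139, 0.248 and 0.294.

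Whether Trdn was called depended on single samples. For the chemotherapy effect it was called without CHEMO STD 1+2 (log2 0.92, edgeR adjusted p = 0.414), without TUMOUR STD 8 (1.04, adjusted p = 0.48) and without TUMOUR STD 11 (0.90, adjusted p = 0.494), and the value was 0.52 without TUMOUR STD 12. With limma voom and sample quality weights it was called for the chemotherapy effect (0.81, adjusted p = 0.544) and for the diet effect (-0.60, adjusted p = 0.425). With 1 sample left out in turn the unadjusted exact permutation p for the chemotherapy effect ran from 0.0476, without CHEMO STD 1+2, to 0.31, without TUMOUR STD 12. For the diet effect the exact permutation p ran from 0.0326, without CHEMO STD 1+2, to 0.434, without CHEMO FO 16. The part of the matrix signal in these differences was not tested.

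**Figure D2:**
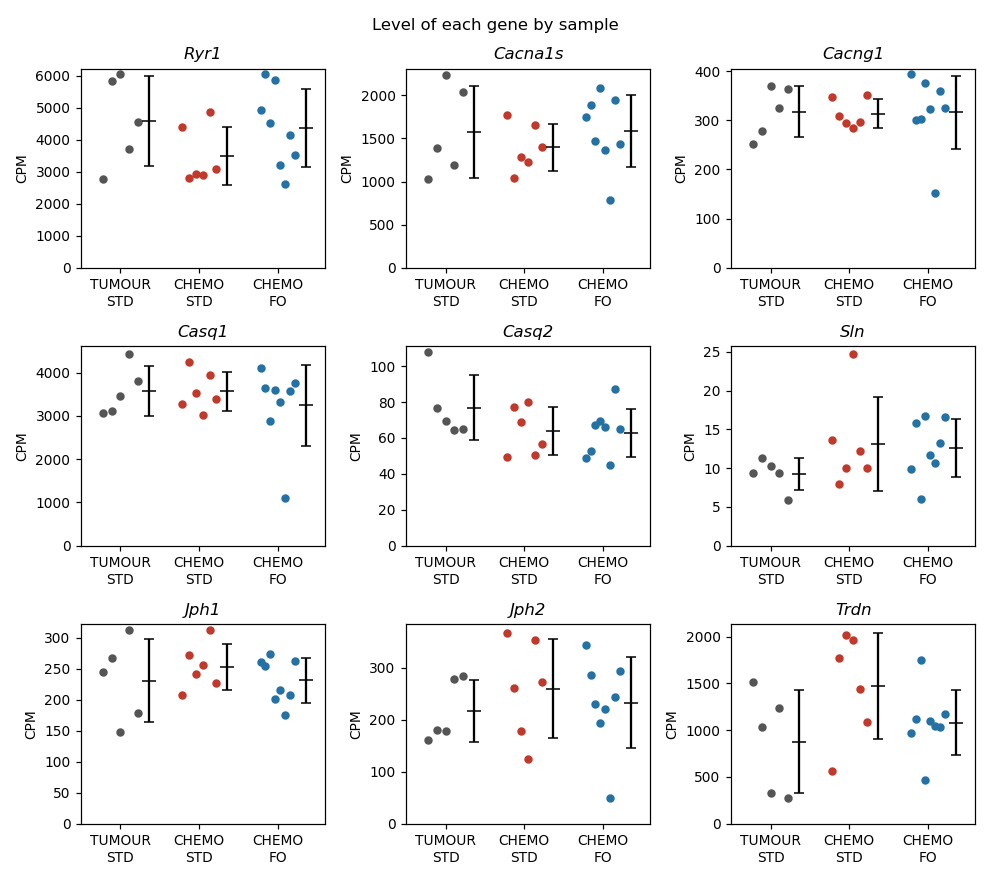
Level of each of the 9 genes in CPM (vertical axes, from 0) in the TUMOUR STD (n = 5), CHEMO STD (n = 6) and CHEMO FO (n = 8) samples, 1 point a sample in sample order, with the mean and SD as black bars. The groups overlap in every panel. CHEMO FO 18 lies far below its group for Cacng1 (152 CPM), Casq1 (1091 CPM) and Jph2 (49.9 CPM), and Trdn spreads from 272 to 2017 CPM.

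The calsequestrins store calcium in the sarcoplasmic reticulum, Casq1 chiefly in fast fibres and Casq2 in slow fibres and the heart. Casq1 was measured at 3056, 3102, 3463, 4435 and 3806 CPM in TUMOUR STD 8 to 12 and at 3026 to 4242 CPM (median 3459) in CHEMO STD. In CHEMO FO it was 1091 CPM in CHEMO FO 18 and between 2882 and 4096 CPM in the other 7. The TUMOUR STD and CHEMO STD ranges nearly coincided. The log2 fold change was -0.00 (95% interval -0.46 to 0.45) for the chemotherapy effect and -0.14 (-0.54 to 0.27) for the diet effect, and without CHEMO FO 18 the latter was -0.0031.

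Casq2 was measured at 107.8, 76.9, 69.5, 64.4 and 65.0 CPM in TUMOUR STD 8 to 12, at 49.5 to 80.3 CPM (median 62.8) in CHEMO STD and at 45.2 to 87.0 CPM (median 65.4) in CHEMO FO. TUMOUR STD 8 was the highest of all 19 samples, and the other 4 TUMOUR STD samples lay within the ranges of both chemotherapy groups. Between groups its log2 fold change was -0.27 (SE 0.178, edgeR adjusted p = 0.728) for the chemotherapy effect, -0.02 (SE 0.161) for the diet effect and -0.29 (SE 0.167, edgeR adjusted p = 0.588) for CHEMO FO versus TUMOUR STD. Without TUMOUR STD 8 the first and the last were -0.11 and -0.13.

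Of the 10 slow-fibre markers tested 1, Myh7, was called lower for the chemotherapy effect, against 1.45% of all genes, and 9 were not called. Myh7, the slow myosin heavy chain, had a log2 fold change of -0.94 (SE 0.277, edgeR adjusted p = 0.719), while Myh4, the fastest myosin of the rat, was at -0.17 (SE 0.162, not called). All 10 slow-fibre markers tested had a log2 fold change under 0 for the chemotherapy effect, with a median of -0.36, as did 50.3% of all genes. Some other marker lists had lower medians in the same comparison. All 9 smooth muscle markers tested were under 0 (median -0.68, 5 called lower), as were all 7 tendon markers (median -0.79, 3 called lower). Other lists did not. The median was -0.34 for endothelium, -0.24 for fibroblast and matrix, -0.13 for denervation, 0.02 for leukocyte, 0.10 for myelin and 0.37 for adipocyte markers. The summed level of the smooth muscle markers was not lower, with a median of 4239 CPM in TUMOUR STD and 4341 CPM in CHEMO STD. The part of any of these tissues in the value of Casq2 was not tested. With the level of the slow-fibre markers as a covariate the log2 fold change of Casq2 for the chemotherapy effect was 0.02. That level itself differed between the groups, with a median sum of 12369 CPM in TUMOUR STD and 7185 CPM in CHEMO STD. The fit therefore cannot fully separate it from the chemotherapy effect.

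Sln encodes sarcolipin, the peptide that restrains the SERCA pump. It was sparse, with 24 to 271 counts a sample, and was measured at 9.36, 11.3, 10.3, 9.37 and 5.84 CPM in TUMOUR STD 8 to 12. It ranged from 7.94 to 24.7 CPM (median 11.1) in CHEMO STD and from 6.06 to 16.7 CPM (median 12.4) in CHEMO FO. CHEMO STD 5 was the highest of all samples, at 24.7 CPM against 13.65 CPM in the next CHEMO STD sample, and most of the other values overlapped. For Sln the log2 fold change was 0.47 (SE 0.265, edgeR adjusted p = 0.719) for the chemotherapy effect, -0.04 (SE 0.237) for the diet effect and 0.43 (SE 0.251, edgeR adjusted p = 0.597) for CHEMO FO versus TUMOUR STD. Without CHEMO STD 5 the first was 0.23 and the second 0.20.

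With the level of the slow-fibre markers as a covariate Sln was called for the chemotherapy effect, with the higher level in CHEMO STD (log2 0.75, edgeR adjusted p = 0.88). In that fit it was also called in CHEMO FO versus TUMOUR STD (0.65, edgeR adjusted p = 0.895). The exact permutation p of the latter comparison was 0.134, and with 1 sample left out in turn it ran, unadjusted, from 0.0177 without CHEMO FO 15 to 0.339 without TUMOUR STD 12. The slow-fibre level had its highest median in TUMOUR STD, so the fit with it as a covariate cannot fully separate it from the group differences.

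Jph1 and Jph2 encode junctophilins, Jph1 the form of skeletal muscle and Jph2 the form that skeletal and heart muscle share. Jph1 was measured at 245, 268, 148, 314 and 179 CPM in TUMOUR STD 8 to 12, at 208 to 313 CPM (median 249) in CHEMO STD and at 175 to 273 CPM (median 236) in CHEMO FO. TUMOUR STD 10 was the lowest of all, and the 2 chemotherapy groups lay within the TUMOUR STD range. Its log2 fold change was 0.13 (95% interval -0.22 to 0.49) for the chemotherapy effect and -0.13 (-0.44 to 0.19) for the diet effect.

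Jph2 was measured at 162, 179, 179, 278 and 284 CPM in TUMOUR STD 8 to 12, at 124 to 367 CPM (median 267) in CHEMO STD and at 49.9 to 343 CPM (median 236) in CHEMO FO. CHEMO FO 18 was the lowest, at 0.205 of the median of the other 7 CHEMO FO samples, and CHEMO STD alone spanned nearly the full range of the remaining samples. For Jph2 the log2 fold change was 0.27 (SE 0.325) for the chemotherapy effect, -0.16 (SE 0.289) for the diet effect and 0.10 (SE 0.306) for CHEMO FO versus TUMOUR STD. The diet effect was -0.0079 without CHEMO FO 18 and 0.17 with limma voom and sample quality weights.

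CHEMO FO 18 was not low in all 9 genes alike. Set against the median of the other 7 CHEMO FO samples, Jph2 was at 0.205, Casq1 at 0.303, Cacna1s at 0.447, Cacng1 at 0.469 and Ryr1 at 0.583. Casq2 and Jph1 were both at 0.687, Sln at 0.804 and Trdn at 0.954. It held the lowest value of its group for 7 genes, all but Sln and Trdn. Pvalb, the fast-fibre calcium buffer parvalbumin, was at 1116 CPM in this sample against 2883 to 4269 CPM in the other 7.

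Over the 27 exact permutation tests of the 9 genes in 3 comparisons the p ran from 0.126 to 0.987, and from 0.751 to 0.987 after Benjamini-Hochberg adjustment. The smallest p that these designs can give is 0.00216 for the chemotherapy effect, 0.000333 for the diet effect and 0.000777 for CHEMO FO versus TUMOUR STD.

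The 9 genes varied from sample to sample in a few distinct ways. After each sample was set against its group mean, so that differences between groups did not enter, Casq2 followed the mean level of the slow-fibre markers (Pearson r = 0.81, Spearman rho = 0.82, n = 19, permutation p = 0.0002 and 0.00028, adjusted over 18 relations 0.0012 for r). The relation was stronger, at r = 0.91, without CHEMO FO 15 and CHEMO FO 19, the 2 samples farthest from the median of the slow-fibre level. The group means were not recomputed for that r. The 3 genes most like Casq2 across the 19 samples were Tnnc1 (r = 0.90), the slow and cardiac troponin C, Atp1b1 (r = 0.88), a sodium pump subunit, and Tnnt1 (r = 0.86), the slow troponin T. Tnnc1 and Tnnt1 are themselves slow-fibre markers. Sln had an r of 0.49 with the same markers (rho = 0.37, permutation p = 0.052 and 0.143), which did not pass. With the fast-fibre markers Casq2 had an r of 0.01.

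Casq1, Jph2 and Cacng1 followed the fast-fibre markers. The r was 0.96 for Casq1 (rho = 0.81, permutation p = 1e-05 for r, the smallest that the permutations can give, and 0.0002 for rho). It was 0.92 for Jph2 (rho = 0.80, both permutation p = 1e-05) and 0.91 for Cacng1 (rho = 0.62, permutation p = 0.00161 and 0.0146, the latter 0.0658 after adjustment). Adjusted over the 18 relations the p for r were 9e-05, 9e-05 and 0.00724. Without CHEMO FO 18 and TUMOUR STD 8, the samples farthest from the median, the r were 0.81, 0.82 and 0.59. The group means were not recomputed for these r, so CHEMO FO 18 still entered through the mean of its group. Cacna1s (r = 0.68, adjusted permutation p = 0.0637) and Ryr1 (r = 0.49, adjusted permutation p = 0.117) did not pass, and without the same 2 samples had an r of 0.22 and 0.02.

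**Figure D3:**
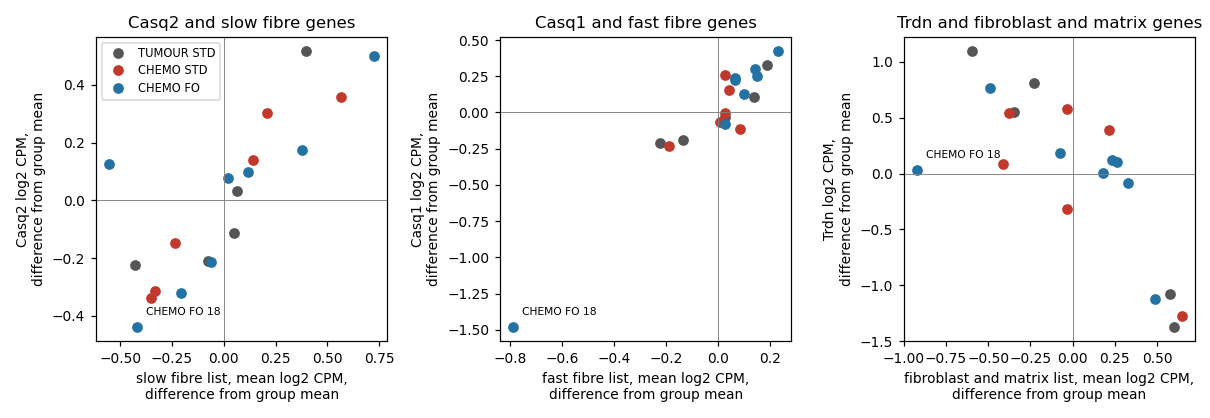
Log2 CPM of Casq2, Casq1 and Trdn (vertical axes) against the mean log2 CPM of the slow-fibre, fast-fibre and fibroblast and matrix markers (horizontal axes), each as the difference from the mean of the sample's group, 1 point for each of 19 samples. Casq2 rises along the slow-fibre level (r = 0.81). Casq1 rises along the fast-fibre level with CHEMO FO 18 far from the rest (r = 0.96, and 0.81 without it and TUMOUR STD 8, on unchanged group means). In the Trdn panel 4 samples at the lower right stand apart from the other 15.

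Among the 36 pairs of the 9 genes, examined after their values had been seen, 7 passed an adjusted permutation p of 0.05 for r. Ryr1 and Cacna1s, the release channel and its voltage sensor, rose and fell together (r = 0.83, rho = 0.80, n = 19, permutation p = 9e-05 and 0.00021, adjusted p = 0.00324 for r), with an r of 0.73 without CHEMO FO 18 and TUMOUR STD 8. Cacna1s did so with Cacng1, its partner subunit (r = 0.81, rho = 0.73, permutation p = 0.00096 and 0.00171, adjusted p = 0.0115), with 0.66 without CHEMO FO 18 and TUMOUR STD 10. Casq1, Jph2 and Cacng1 made up the 3 pairs that shared the low CHEMO FO 18, with r of 0.87, 0.87 and 0.81. These fell to 0.58 for Casq1 with Jph2, 0.45 for Casq1 with Cacng1 and 0.43 for Cacng1 with Jph2 without that sample and one other. In each r with samples left out here the group means were not recomputed, so a left-out sample still entered through the mean of its group. The 3 genes most like Ryr1 were Wnk2 (r = 0.96), Prrc2b (0.95) and Speg (0.95). Speg encodes a kinase of the junction between the transverse tubule and the sarcoplasmic reticulum. The 3 most like Sln were Slc4a3 (0.77), Mfsd9 (0.77) and Septin10 (0.77), a weaker likeness than for the other named genes. The genes most opposite to Sln reached the same size (-0.77 for Aste1 and for Adcy2). Each such list holds the extremes of 11715 genes and was not tested against chance.

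The remaining pairs that passed both held Trdn, namely Jph1 (r = 0.73, rho = 0.70, adjusted permutation p = 0.0329) and Cacna1s (r = -0.68, rho = -0.73, adjusted permutation p = 0.0329). With Jph1 the r was 0.65 without TUMOUR STD 10 and TUMOUR STD 11. With Cacna1s it was -0.81 without CHEMO FO 18 and TUMOUR STD 10, both on unchanged group means. Without TUMOUR STD 10, TUMOUR STD 12, CHEMO STD 1+2 and CHEMO FO 16, which were picked as the samples low in Trdn, the r over the other 15 were 0.23 with Jph1 and -0.24 with Cacna1s. Trdn had an r of -0.75 with the fibroblast and matrix markers over all 19 samples, a list related to the genes only after the values had been seen, and -0.27 over those 15. Over all 19 samples rho was -0.71 (adjusted permutation p = 0.00351 for r and 0.0139 for rho). Without CHEMO FO 18 and CHEMO STD 1+2, on unchanged group means, the r was -0.83. Leaving out samples picked for their low Trdn narrows the range of Trdn, so a smaller r follows in part from the choice itself. The genes most like Trdn, chosen for naming after its values had been seen, were Emc2, Nexn and Cwf19l2 (r = 0.96, 0.96 and 0.95). With the matrix markers 5 of the 9 genes passed an adjusted permutation p of 0.05 for r, Trdn and 4 with a positive r. Over 19 and over those 15 samples the r was 0.80 and 0.81 for Cacng1, 0.77 and 0.58 for Cacna1s, 0.59 and 0.82 for Casq1, and 0.58 and 0.71 for Jph2. Cacng1 and Cacna1s passed by rho as well (rho = 0.76 and 0.69, adjusted permutation p = 0.00576 and 0.0139). Casq1 and Jph2 did not (rho = 0.40 and 0.39, both adjusted permutation p = 0.138). Without CHEMO FO 18 and CHEMO STD 1+2 the r of Cacng1, Cacna1s, Casq1 and Jph2 were 0.79, 0.66, 0.50 and 0.28. Group means were not recomputed for these last r. All these values come from samples that also share library depth and composition.

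**Figure D4:**
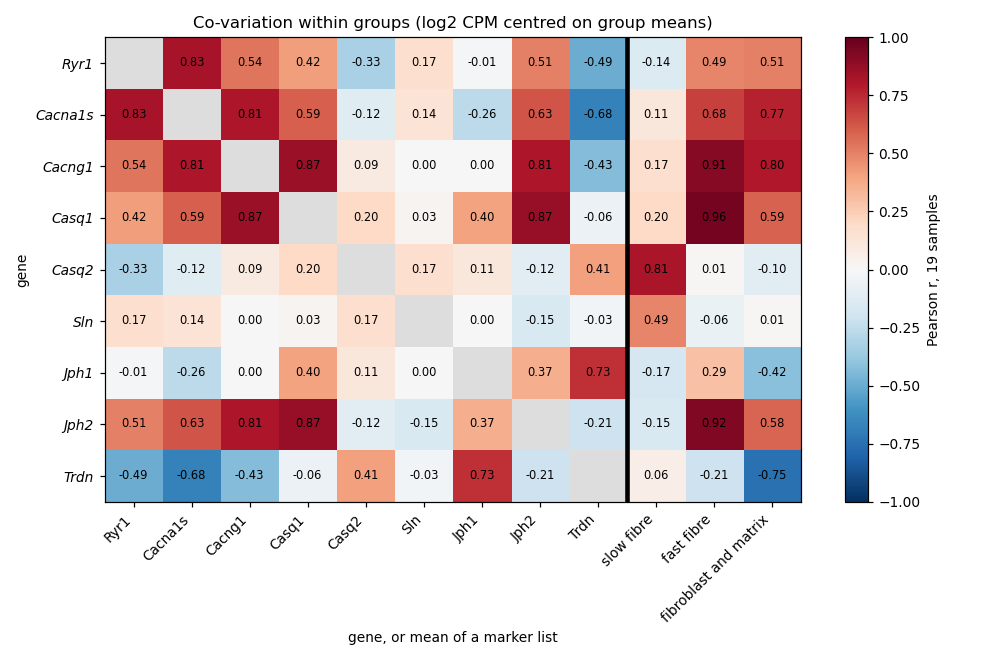
Pearson r of log2 CPM, each sample set against its group mean (n = 19), between the 9 genes and between each gene and the mean of 3 marker lists to the right of the heavy line. Red is positive and blue negative. Casq1, Jph2 and Cacng1 form a block with the fast-fibre markers (0.91 to 0.96), Casq2 stands with the slow-fibre markers (0.81), and Trdn is negative with Cacna1s (-0.68). Without CHEMO FO 18 and TUMOUR STD 8, on unchanged group means, the fast-fibre values were 0.81 for Casq1, 0.82 for Jph2 and 0.59 for Cacng1. Cacng1 also has 0.80 with the fibroblast and matrix markers.

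The wider pathway was examined in 76 further genes for the voltage sensor complex, calcium release, uptake, mitochondrial and store-operated entry, and calcium-dependent signalling, of which 68 were tested. For the chemotherapy effect 27 had a log2 fold change above 0 and 41 below (49.7% and 50.3% of all genes), with a median of -0.07, and 2 of 68 were called against 2.38% of all genes. For the diet effect 26 were above 0 and 42 below (48.7% and 51.3%), with a median of -0.09, and 2 were called against 1.66%. For CHEMO FO versus TUMOUR STD 30 were above 0 and 38 below (50.4% and 49.6%), with a median of -0.06, and 6 were called against 3.6%. These called genes pass only the unadjusted threshold, and edgeR's adjusted p over all genes was at least 0.486 for each.

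The chemotherapy effect held Atp2a2 and Micu3. Atp2a2 encodes SERCA2, the calcium pump of slow fibres and the heart. It was measured at 2270, 2055, 1990, 1266 and 1914 CPM in TUMOUR STD 8 to 12, at 957 to 1489 CPM (median 1224) in CHEMO STD and at 887 to 2198 CPM (median 1416) in CHEMO FO. TUMOUR STD 11 lay within the CHEMO STD range and the other 4 TUMOUR STD samples lay above all of it. The log2 fold change was -0.62 (SE 0.204, edgeR adjusted p = 0.719), and in CHEMO FO versus TUMOUR STD -0.40 (SE 0.191, adjusted p = 0.551, not called). With the slow-fibre markers as a covariate it was -0.20 (edgeR adjusted p = 0.88) and not called for the chemotherapy effect. The slow-fibre level had a higher median in TUMOUR STD than in CHEMO STD, so that fit cannot fully separate it from the chemotherapy effect. The call was also lost, with the value under 1.5-fold, without CHEMO STD 1+2 (-0.57), CHEMO STD 6 (-0.57), CHEMO STD 7 (-0.55) or TUMOUR STD 8 (-0.54), and with limma voom and quality weights (-0.52). Micu3, a regulator of the mitochondrial calcium uniporter, was sparse. Its median was 5.72 CPM in TUMOUR STD and 10.8 CPM in CHEMO STD (log2 0.84, SE 0.289, edgeR adjusted p = 0.719), with overlapping ranges of 2.52 to 10.2 and 7.05 to 12.5 CPM.

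The diet effect held Rrad, a small GTPase that inhibits calcium channels, and Rcan1, an inhibitor and target of calcineurin signalling. Rrad ranged from 16.2 to 36.2 CPM in CHEMO STD and from 14.6 to 60.4 CPM in 7 CHEMO FO samples, with 199 CPM in CHEMO FO 18. Rcan1 ranged from 62.7 to 136 CPM in CHEMO STD and from 45.4 to 252 CPM in 7 CHEMO FO samples, with 610 CPM in CHEMO FO 18. The same sample thus stood above its group in both genes, and the groups overlapped. The log2 fold changes were 1.21 (SE 0.433, edgeR adjusted p = 0.974) for Rrad and 1.07 (SE 0.415, edgeR adjusted p = 0.974) for Rcan1. Without CHEMO FO 18 they were 0.52 and 0.46 and were not called (edgeR adjusted p = 0.889 for both), nor with limma voom and quality weights (0.48 and 0.37).

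In CHEMO FO versus TUMOUR STD the called genes were Atp2b4, a plasma membrane calcium pump (log2 -0.75), Cacna1h, a T-type calcium channel (-0.84), Nfatc4, a calcineurin-responsive transcription factor (-0.61), Itpr3, an inositol trisphosphate receptor (-0.76), and again Rrad (1.05) and Rcan1 (0.99). Cacna1h, Itpr3 and Nfatc4 were sparse, with lowest values of 1.01, 3.79 and 3.08 CPM in CHEMO FO. Of the 9 smooth muscle markers tested 7 had a log2 fold change under 0 in that comparison, with a median of -0.62. Of these markers 4 were called lower, against 2.51% of all genes. The sum of the 10 smooth muscle markers in the count table went the other way. Its median was 5707 CPM in CHEMO FO and 4239 CPM in TUMOUR STD. All 7 fibroblast and matrix markers tested had a log2 fold change under 0, with a median of -0.40. The part of those cell types in the lower values was not tested. Without CHEMO FO 18 the values of Rrad and Rcan1 were 0.36 and 0.38 and neither was called. Without TUMOUR STD 10, the sample with the highest smooth muscle, tendon and skin markers, Itpr3 was at -0.17, Atp2b4 at -0.50 and Nfatc4 at -0.50, and none of the 3 was called. Itpr3 also lost its call without CHEMO FO 15, 18, 19 or 20, and Nfatc4 without TUMOUR STD 12 or CHEMO FO 14, 15, 18 or 20. Rrad and Rcan1 lost theirs without TUMOUR STD 9, 11 or 12 as well, and Rcan1 without CHEMO FO 19. With only the 2 groups compared in the fit, Itpr3 (-0.75), Rrad (1.05) and Rcan1 (0.99) were not called. The slow-fibre level as a covariate left Itpr3 (-0.75), Nfatc4 (-0.57) and Rrad (1.00) not called. With limma voom and quality weights Itpr3 (-0.29), Atp2b4 (-0.51), Nfatc4 (-0.44), Rrad (0.30) and Rcan1 (0.36) were not called.

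Partners of the 9 genes were also followed for their role. For the chemotherapy effect the log2 fold change was 0.23 (SE 0.164) for Stac3, which the voltage sensor needs to reach the junction, -0.07 (SE 0.233) for its beta subunit Cacnb1 and 0.23 (SE 0.221) for its alpha-2/delta subunit Cacna2d1. It was 0.00 (SE 0.105) for Fkbp1a, which encodes the FKBP12 protein that steadies the release channel, and -0.25 (SE 0.279) for the paralogous channel Ryr3. It was -0.15 (SE 0.167) for the store sensor Stim1, 0.18 (SE 0.238) for Pvalb and -0.35 (SE 0.378) for Pln, the phospholamban gene, at 0.719 to 3.87 CPM. None of these 8 was called in any comparison. Mrln was not analysed here.

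**Figure D5:**
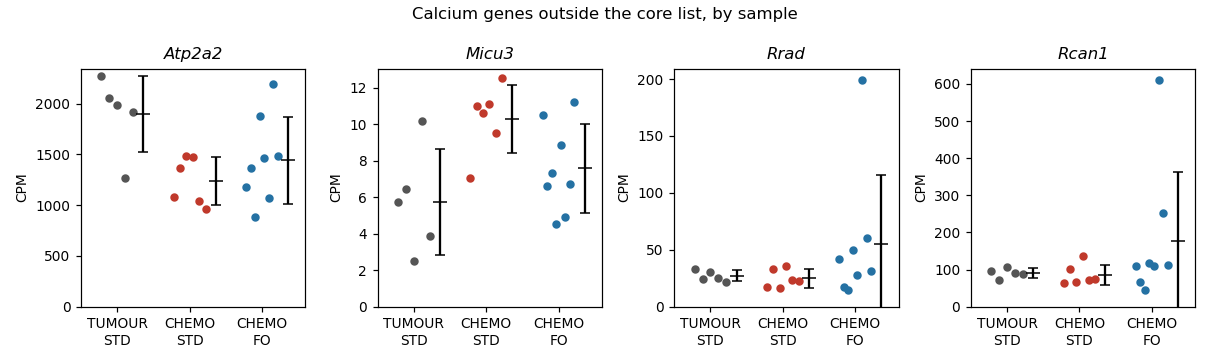
Level in CPM (vertical axes, from 0) of Atp2a2, Micu3, Rrad and Rcan1 in the TUMOUR STD (n = 5), CHEMO STD (n = 6) and CHEMO FO (n = 8) samples, 1 point a sample in sample order, with the mean and SD as black bars. Atp2a2 is above the CHEMO STD range in 4 of 5 TUMOUR STD samples, and CHEMO FO 18 is far above the rest for Rrad (199 CPM) and Rcan1 (610 CPM).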

How the data were processed

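Gastrocnemius RNA was sequenced from 20 libraries as stranded total RNA after depletion of ribosomal RNA. The authors deposited raw counts per gene, made per the labels with CASAVA 1.9, Trim Galore 0.4.1, FastQC 0.11.4, TopHat2 2.0.10 and Bowtie2 on Rnor 6. The strand setting of the counting is not given in the sources used here. In the table, 388 rows name no gene and were left out (0.102 to 0.272% of the counts), and 2 Myh4 counts were stored rounded to 3 digits. Counts were filtered with filterByExpr (minimum count 10, minimum total 15), scaled by TMM and tested over all genes with edgeR 4.0.16 quasi-likelihood (R 4.3.3), with Benjamini-Hochberg adjustment and 1 estimate of spread over the 3 groups. CPM used a prior count of 2 on the log2 scale. Exact permutation tests compared mean log2 CPM. Correlations used 100000 permutations within groups. Alternatives included DESeq2 1.42.0, limma 3.58.1 voom, other scalings and filters, a slow-fibre covariate and leaving out each sample. The relations to the matrix markers and between the genes themselves were added after seeing the data. The genes, lists and tests were chosen with earlier results of these data known. Named pathway genes were the partners chosen by role, and those called, at most 6 a comparison. The labels do not say that every sample is a separate animal, so p-values measure the spread between these samples. The edgeR fit was tested on simulated counts and the exact permutation test on a small made-up example. The other steps were not tested in this way.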

Additional observations from a re-analysis of the deposited data

Results flagged for a closer look

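Of 27 sets of CPM values (9 genes in 3 groups), 4 held a sample that stood apart by Dixon's test at the 95% level. Chance alone sets about 1 in 20 independent groups apart, but these sets reuse the same samples and are not independent. Cacng1 was at 152.4 CPM in CHEMO FO 18, against 301 CPM in the next lowest CHEMO FO sample. Casq1 was at 1091 CPM in the same sample, against 2882 CPM in the next. Casq2 was at 107.8 CPM in TUMOUR STD 8, against 76.92 CPM in the next highest TUMOUR STD sample. It passed barely, with a gap of 0.712 of the range against a critical value of 0.71. Sln was at 24.75 CPM in CHEMO STD 5, against 13.65 CPM in the next highest CHEMO STD sample.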

How the results depend on the processing

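No paired analysis was possible because the labels give no pairing between groups, and the study describes random assignment of rats to the 3 groups. The fold changes of the 9 genes and of the called pathway genes kept their direction and their side of the threshold in 976 of 1110 recomputed values, and changed sign in 85, the largest of these 0.20 in size on the log2 scale. The permutation tests kept both in 320 of 369 and changed sign in 45, the largest 0.28 in size. The 9 genes were not called to begin with, so keeping their side of the threshold was their usual outcome. The fold changes also include fits that left out a sample of the group not compared. Only the called pathway genes could lose a call, and 42 of their values did. The number of genes called was 762, 528 and 1059 in the order of the report at an unadjusted p under 0.05 with any fold, 971, 722 and 1116 without the filter on low counts, and 0 in each comparison at an adjusted p under 0.05. With 1 sample left out in turn it ranged from 161 (without TUMOUR STD 10) to 603 (without CHEMO STD 1+2) for the chemotherapy effect and from 273 (without CHEMO FO 18) to 584 for CHEMO FO versus TUMOUR STD. Of the 9 genes, 1 was called with limma voom for the chemotherapy effect and 1 for the diet effect (Trdn in both), and 1 with the slow-fibre covariate for the chemotherapy effect and 1 for CHEMO FO versus TUMOUR STD (Sln in both). With 1 sample left out in turn 0 to 1 were called for the chemotherapy effect. With RLE size factors the log2 fold changes that changed sign were Casq1 0.0074 for the chemotherapy effect and Cacng1 0.0046 for CHEMO FO versus TUMOUR STD. With library totals alone the log2 fold changes that changed sign were Cacng1 0.012 and Casq1 0.021 for the chemotherapy effect, Cacng1 -0.037 for the diet effect and Cacna1s -0.0027 and Jph1 -0.017 for CHEMO FO versus TUMOUR STD. With DESeq2 the log2 fold changes that changed sign were Casq1 0.0074 for the chemotherapy effect and Cacng1 0.0043 for CHEMO FO versus TUMOUR STD. With limma voom and quality weights the log2 fold changes that changed sign were Cacng1 0.021 and Casq1 0.020 for the chemotherapy effect, Sln 0.12 and Jph2 0.17 for the diet effect and Ryr1 0.086, Cacng1 0.15 and Jph1 -0.053 for CHEMO FO versus TUMOUR STD. With CHEMO STD 1 and 2 as 2 libraries the log2 fold changes that changed sign were Cacng1 0.0095 for the chemotherapy effect, Cacng1 -0.0060 and Casq2 0.030 for the diet effect and Cacng1 0.0035 for CHEMO FO versus TUMOUR STD. With only the 2 groups compared in the fit the log2 fold changes that changed sign were Casq1 0.0051 for the chemotherapy effect. With the slow-fibre level as a covariate the log2 fold changes that changed sign were Cacng1 0.028, Casq1 0.050 and Casq2 0.023 for the chemotherapy effect, Cacng1 -0.0041 for the diet effect and Cacng1 0.024, Jph1 -0.051 and Jph2 -0.032 for CHEMO FO versus TUMOUR STD. With 1 sample left out in turn, the log2 fold changes whose sign changed ranged, for the chemotherapy effect from -0.081 to 0.044 for Cacng1 and from -0.055 to 0.088 for Casq1. For the diet effect from -0.036 to 0.12 for Cacng1, from -0.11 to 0.052 for Casq2 and from -0.14 to 0.20 for Sln. For CHEMO FO versus TUMOUR STD from -0.20 to 0.046 for Ryr1, from -0.096 to 0.17 for Cacna1s, from -0.066 to 0.11 for Cacng1, from -0.19 to 0.0018 for Casq1 and from -0.12 to 0.14 for Jph1. The differences in mean log2 CPM behind the permutation tests ranged likewise, for the chemotherapy effect from -0.27 to 0.011 for Cacna1s, from -0.087 to 0.052 for Cacng1 and from -0.050 to 0.084 for Casq1. For the diet effect from -0.081 to 0.11 for Cacng1, from -0.098 to 0.044 for Casq2, from -0.14 to 0.18 for Sln and from -0.42 to 0.066 for Jph2. For CHEMO FO versus TUMOUR STD from -0.23 to 0.049 for Ryr1, from -0.12 to 0.17 for Cacna1s, from -0.12 to 0.11 for Cacng1, from -0.10 to 0.17 for Jph1 and from -0.12 to 0.28 for Jph2. The cause was not tested for any of these. Fewer samples, or for the unfiltered counts more genes tested, are part of how some of these settings are built. Sln, with 24 to 271 counts a sample, is the gene whose precision depth limits most.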
